A study of Mus musculus with 38 samples.

Results

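The 40 genes described here encode the machinery that brings proteins into the endoplasmic reticulum (ER), folds them there and responds when folding fails. They were chosen by name and grouped by function: 4 subunits of the signal recognition particle (SRP), 5 translocon genes, 4 subunits of the translocon-associated protein (TRAP) complex, 5 signal peptidase genes, 7 chaperones and oxidoreductases, 7 co-chaperones and induced lumen proteins, 3 KDEL receptors and 5 stress regulators and degradation factors. All 40 were found among the 23481 gene rows of the bulk and SCRB-seq tables and among the 22811 genes of the SMART-seq2 tables. The questions were whether this machinery was higher in XEN-like cells, which functions took part, when the genes rose relative to genes of the basement membrane, and what levels they had in cells returned to culture.

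The study followed mouse embryonic stem cells (mESC) of the E14 line through differentiation with all-trans retinoic acid (RA). The mESC were grown in 2i medium with 1 µM MEK inhibitor (PD0325901), 3 µM GSK3 inhibitor (CHIR99021) and 1000 U/ml LIF and stand for 0 h. RA at 0.25 µM was then given for up to 96 h, in N2B27 medium free of inhibitors and LIF. At 96 h, ectoderm-like cells (CD24+/PDGFRA-) and XEN-like cells (PDGFRA+/CD24-), the latter resembling extraembryonic endoderm, were purified with antibodies against CD24 and PDGFRA. Cells that had not bound the PDGFRA antibody were also split by CD24 into 4 quartiles at 48 h and 3 terciles at 72 h, and PDGFRA+/CD24- cells were collected at 72 h. Sorted 96 h cells were also kept in N2B27 medium with 20 ng/ml EGF and 10 ng/ml FGF2, the ectoderm-like cells attached and replated to passage 5, the XEN-like cells as floating aggregates for 3 weeks without dissociation. All groups came from this 1 line, so differences between lines were not measured, and the sorted groups are defined by surface antibodies and not by a lineage label.

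Bulk libraries of mESC, sorted ectoderm-like and sorted XEN-like cells were present in 2 biological replicates each, and the other 19 bulk conditions as 1 library each, with 1063809 to 2459424 unique molecular identifiers (UMIs, each a counted RNA molecule) per library. Levels are given as UMIs per 1000000 (CPM). The XEN markers Dab2, Gata4, Gata6, Sox17 and Pdgfra summed to 1806 and 1381 CPM in the sorted XEN-like libraries, to 55.0 and 352 CPM in the sorted ectoderm-like libraries and to 5.69 and 3.92 CPM in mESC. The second ectoderm-like library held more of all 5 markers than the first, with Dab2 at 242 against 30.6 CPM. The 12 pluripotency markers, Dppa3 alone at 0 in the XEN-like libraries, summed to 6267 and 4524 CPM in XEN-like, 790 and 432 CPM in ectoderm-like and 13436 and 18354 CPM in mESC libraries. In bulk samples, a smaller number of cells of a type and less RNA per cell cannot be told apart.

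Secretory and membrane proteins carry a signal peptide that SRP recognises while the protein is still being made, and SRP docks the ribosome at the Sec61 channel. TRAP assists the channel, signal peptidase cuts off the signal peptide, and chaperones such as BiP (Hspa5), GRP94 (Hsp90b1), calreticulin and the protein disulfide isomerases fold the chain in the ER lumen, from where KDEL receptors retrieve escaped residents. When unfolded proteins build up, the unfolded protein response acts through ATF6, through IRE1 and its target XBP1, and through PERK, ATF4 and CHOP (Ddit3). Extraembryonic endoderm is known for secreting laminin and type IV collagen into a basement membrane, a load that passes through this machinery.

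The ER stress response element (ERSE), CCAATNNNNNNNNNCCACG, is the promoter motif through which ATF6 and XBP1 are known to act on chaperone genes. In RefSeq promoters of mouse build GRCm38.p6, from 250 bases before to 50 bases after the start, on either strand, it was found in 7 of the 32 members with a promoter sequence (Calr, Canx, Creld2, Dnajc3, Hsp90b1, Hspa5 and Pdia6), in 3 of 82 other secretory genes and in 0.119% of all 32851 promoters. ERSE-II, ATTGGNCCACG, was found in Dnajb11 and Herpud1 (0.0365% of all promoters). The core of the unfolded protein response element, TGACGTGG, was found in Kdelr3 (0.676%). The ATF4 site TGATGNAA was found in Herpud1 and Kdelr1 (3.97%). A match says that these letters stand in the window, and binding was not measured. The following stretches are read 5′ to 3′ on the strand of the gene, with the motif, which may run on the opposite strand, in capitals. They are shown because they belong to the chaperones with the highest levels and to the folding, retrieval and stress genes that the results return to.
Hspa5, chr2:34771985-34772083, + strand, ERSE at -65 to -47 from the RefSeq start: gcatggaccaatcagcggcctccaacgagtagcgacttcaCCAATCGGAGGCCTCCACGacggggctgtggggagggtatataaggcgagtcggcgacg
Hsp90b1, chr10:86705493-86705591, - strand, ERSE at -107 to -89 from the RefSeq start: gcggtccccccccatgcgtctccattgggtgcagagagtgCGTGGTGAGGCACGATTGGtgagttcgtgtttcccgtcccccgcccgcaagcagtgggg
Hsp90b1, chr10:86705598-86705694, - strand, ERSE at -212 to -194 from the RefSeq start: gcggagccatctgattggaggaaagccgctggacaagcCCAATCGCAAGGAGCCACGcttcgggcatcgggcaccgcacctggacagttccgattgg
Calr, chr8:84847035-84847133, - strand, ERSE at -162 to -144 from the RefSeq start: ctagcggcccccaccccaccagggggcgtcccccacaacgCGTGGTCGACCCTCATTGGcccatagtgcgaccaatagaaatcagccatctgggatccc
Pdia6, chr12:17266451-17266549, + strand, ERSE at -98 to -80 from the RefSeq start: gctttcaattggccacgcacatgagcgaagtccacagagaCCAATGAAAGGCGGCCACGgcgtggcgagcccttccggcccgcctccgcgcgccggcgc
Dnajc3, chr14:118937787-118937885, + strand, ERSE at -105 to -87 from the RefSeq start: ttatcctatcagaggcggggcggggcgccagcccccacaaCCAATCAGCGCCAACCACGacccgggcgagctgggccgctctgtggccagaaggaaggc
Kdelr3, chr15:79516338-79516407, + strand, UPRE core at -30 to -23 from the RefSeq start: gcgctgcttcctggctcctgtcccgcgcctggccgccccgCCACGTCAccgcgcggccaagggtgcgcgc
Herpud1, chr8:94386337-94386427, + strand, ERSE-II at -52 to -42 from the RefSeq start: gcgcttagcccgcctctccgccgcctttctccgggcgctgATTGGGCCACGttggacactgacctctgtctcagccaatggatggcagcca

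In sorted XEN-like cells the members were higher than in mESC across nearly every function, and most members of the translocon, TRAP, chaperones, co-chaperones and KDEL receptors were also higher than in sorted ectoderm-like cells. The 40 members together made up 6637 and 5521 CPM in the mESC libraries, 7469 and 8477 CPM in the ectoderm-like libraries and 20548 and 15821 CPM in the XEN-like libraries, so the XEN-like pair stood above the other 4 and the groups did not overlap. Of the 39 members with enough UMIs to test (Dnajb9 was too low), 30 were higher in XEN-like cells than in mESC at an adjusted p below 0.05 in edgeR's quasi-likelihood test, against 12.3% of all 8945 genes tested, and 1, Atf4, was lower, against 10.5%. The median log2 fold change of the members was 1.54, beside -0.06 over all genes. Between ectoderm-like cells and mESC, 3 members were higher (Sec63, Dnajc3 and Ssr3), against 9.82% of all genes, and 1 was lower (Atf4), against 9.27%, with a median of 0.09 beside 0.05. Between XEN-like and ectoderm-like cells, 24 members were higher, against 6.98% of all genes, and 0 were lower, against 5.71%, with a median of 1.38 beside -0.06. That 0 held also at an unadjusted p below 0.05 and in DESeq2. Most of the 24 calls between the fates were lost in at least 1 fit that left out 1 library, as given below. All 3 comparisons came from the same fit, and each shares libraries with both of the others. Their values are therefore given side by side and not as independent results.

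**Figure D1:**
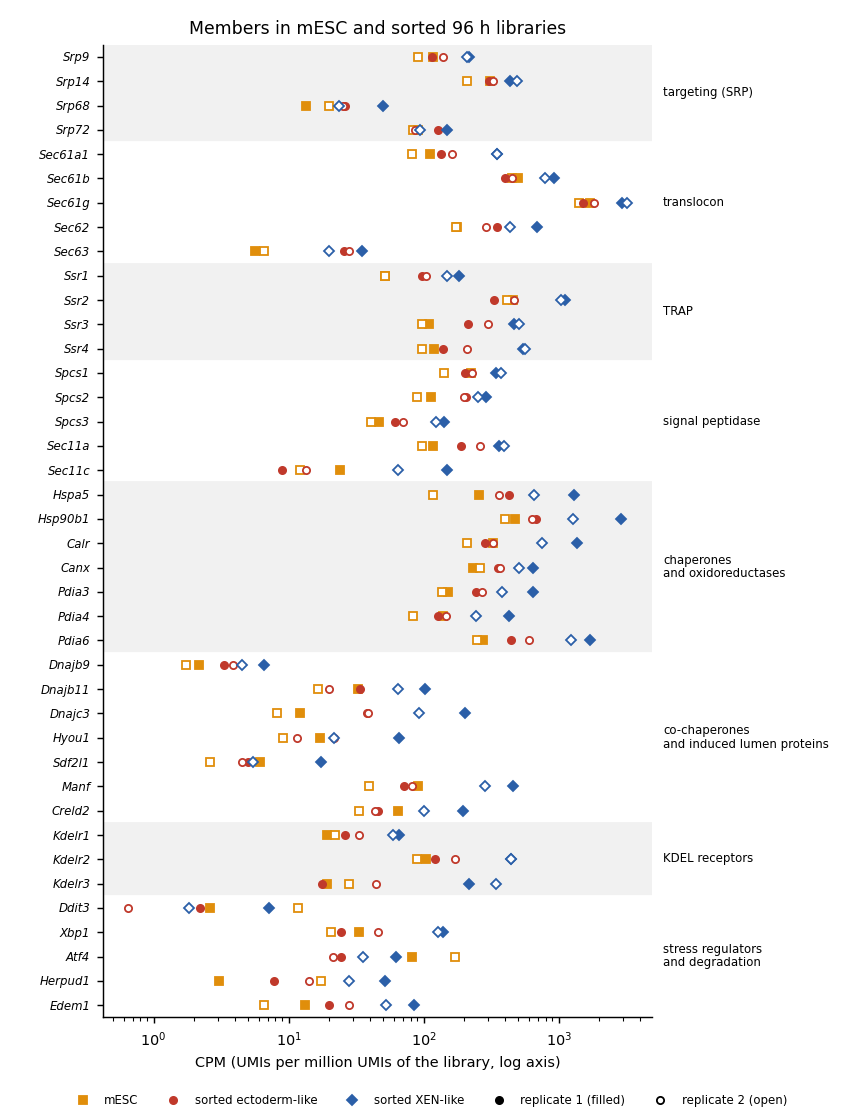
CPM (log axis) of each of the 40 members in mESC, sorted ectoderm-like and sorted XEN-like libraries, grouped by function, with filled symbols for replicate 1 and open symbols for replicate 2. Both XEN-like symbols lie above both mESC symbols for 36 of the 39 members tested and below them for 1.

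For 36 of the 39 tested members both XEN-like libraries lay above both mESC libraries, and for 1 both lay below. Over all genes 37.3% lay above and 23.9% below, so a lack of overlap was common in this comparison. Against the ectoderm-like libraries both XEN-like libraries lay above for 35 members and below for 0, beside 23.9% and 33.8% of all genes. Both ectoderm-like libraries lay above both mESC libraries for 19 members and below for 3, beside 45.4% and 17.8%.

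The targeting step had the lowest median log2 change against mESC, 0.74. Of the SRP subunits measured here, which are not the one that binds the signal peptide, 1 of 4 rose in XEN-like cells against mESC. Srp9, which with Srp14 slows the ribosome until docking, read 118 and 90.5 CPM in mESC, 116 and 140 in ectoderm-like and 216 and 210 in XEN-like libraries. Its XEN-like pair lay above the other 4 libraries, and the log2 change against mESC was 0.83 ± 0.27 (SE, edgeR adjusted p = 0.0427). That call missed the threshold without any 1 of the mESC or XEN-like libraries, with log2 changes of 0.67 to 0.98. Srp14, Srp68 and Srp72 had log2 changes of 0.28 to 0.92 and adjusted p values of 0.105 to 0.526. Against ectoderm-like cells 0 of the 4 passed in edgeR or DESeq2, with 2 at an unadjusted p below 0.05.

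Of the translocon genes, 4 of 5 rose in XEN-like cells against mESC (Sec61a1, Sec61g, Sec62 and Sec63). Against ectoderm-like cells 4 of 5 rose (Sec61a1, Sec61b, Sec61g and Sec62), but each of these calls was lost without the first ectoderm-like library. The log2 differences were then 1.18, 1.01, 0.83 and 1.02 in that order. Sec61a1, the pore-forming subunit, read 111 and 82.7 CPM in mESC, 133 and 163 in ectoderm-like and 352 and 349 in XEN-like libraries. The XEN-like values were above all others and nearly equal, at a log2 change of 1.66 ± 0.27 against mESC (SE, edgeR adjusted p = 0.00122). The small subunit Sec61g, at 1695 and 1421 CPM in mESC and 2953 and 3214 CPM in XEN-like libraries, changed by 0.79 (edgeR adjusted p = 0.0385) and missed the threshold without any 1 of those libraries (0.61 to 0.99). Its partner Sec61b, at 497 and 452 against 921 and 796 CPM, changed by 0.65 and missed the threshold (edgeR adjusted p = 0.0665).

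Sec63, which recruits BiP to the channel, differed from the other translocon genes. It read 5.69 and 6.53 CPM in mESC, 25.6 and 27.8 in ectoderm-like and 35.0 and 20.1 in XEN-like libraries. The mESC pair was lowest and the sorted fates overlapped. Sec63 rose against mESC in XEN-like cells (log2 change 1.96 ± 0.39 SE, edgeR adjusted p = 0.00391) and in ectoderm-like cells (1.80 ± 0.39 SE, edgeR adjusted p = 0.00722), and the log2 difference between the fates was 0.16 (edgeR adjusted p = 0.823). The ectoderm-like call missed the threshold without the second ectoderm-like library (1.69, edgeR adjusted p = 0.0594).

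All 4 TRAP subunits rose in XEN-like cells against mESC, and 3 of 4 rose against ectoderm-like cells. Ssr4 read 119 and 97.5 CPM in mESC, 140 and 209 in ectoderm-like and 541 and 564 in XEN-like libraries. Both XEN-like values stood well clear of the rest, at log2 changes of 2.16 ± 0.29 against mESC (SE, edgeR adjusted p = 0.000385) and 1.77 against ectoderm-like cells (edgeR adjusted p = 0.0031). Ssr3 read 110 and 97.5 CPM in mESC, 212 and 301 in ectoderm-like and 468 and 511 in XEN-like libraries. The 3 groups of Ssr3 values were in that order without overlap, and Ssr3 was the TRAP subunit that also rose in ectoderm-like cells (1.00 ± 0.28 SE, edgeR adjusted p = 0.0266). That call missed the threshold without the second ectoderm-like library (0.66, edgeR adjusted p = 0.221) and without either mESC library (0.93 and 1.04).

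Of the signal peptidase genes, 4 of 5 rose in XEN-like cells against mESC and 2 of 5 against ectoderm-like cells. Sec11c, one of the alternative catalytic subunits, read 24.1 and 12.2 CPM in mESC, 8.89 and 13.6 in ectoderm-like and 148 and 64.7 in XEN-like libraries. The XEN-like pair stood above the other 4 but its libraries differed from each other by more than 2-fold. The log2 change was 2.33 ± 0.43 against mESC (SE, edgeR adjusted p = 0.00252) and 3.33 ± 0.47 against ectoderm-like cells (SE, edgeR adjusted p = 0.00171), the largest among the members in the latter comparison. The other catalytic subunit, Sec11a, read 118 and 97.1 CPM in mESC, 188 and 261 in ectoderm-like and 361 and 395 in XEN-like libraries. It rose against mESC (1.62, edgeR adjusted p = 0.00179) and missed the threshold against ectoderm-like cells (0.86, edgeR adjusted p = 0.0659). The accessory subunit Spcs1 missed it in both (0.79 and 0.85, edgeR adjusted p = 0.0617 and 0.0693).

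All 7 chaperones and oxidoreductases rose in XEN-like cells against mESC, with a median log2 change of 1.76, and 6 of 7 rose against ectoderm-like cells. Hspa5, the general ER chaperone BiP, read 257 and 117 CPM in mESC, 427 and 359 in ectoderm-like and 1308 and 654 in XEN-like libraries. Its groups did not overlap, and the log2 change was 2.17 ± 0.37 against mESC (SE, edgeR adjusted p = 0.00163) and 1.40 ± 0.36 against ectoderm-like cells (SE, edgeR adjusted p = 0.0261). The difference from ectoderm-like cells missed the threshold without the first or second ectoderm-like library (edgeR adjusted p = 0.165 and 0.137) or the first XEN-like library (0.98, edgeR adjusted p = 0.193). Hsp90b1, which folds a set of secreted and surface clients, read 473 and 402 CPM in mESC, 677 and 635 in ectoderm-like and 2912 and 1281 in XEN-like libraries. Its log2 change was 2.02 ± 0.31 against mESC (SE, edgeR adjusted p = 0.000905) and 1.75 ± 0.31 against ectoderm-like cells (SE, edgeR adjusted p = 0.00470), the latter at an edgeR adjusted p of 0.0621 without the first ectoderm-like library.

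Calr, the soluble lectin chaperone calreticulin, read 329 and 209 CPM in mESC, 284 and 326 in ectoderm-like and 1370 and 748 in XEN-like libraries. Here the mESC and ectoderm-like values overlapped and the XEN-like values were higher, at 1.76 ± 0.31 against mESC (SE, edgeR adjusted p = 0.00178) and 1.88 ± 0.31 against ectoderm-like cells (SE, edgeR adjusted p = 0.00320, and 0.0566 without the first ectoderm-like library). Its membrane-bound relative Canx, at 233 and 261, 355 and 371, and 651 and 511 CPM in the same order, rose against mESC (1.02, edgeR adjusted p = 0.00995, and 0.0878 and 0.0646 without the first mESC or first XEN-like library) and missed the threshold against ectoderm-like cells (0.78, edgeR adjusted p = 0.0554). Pdia6, a protein disulfide isomerase, read 275 and 250 CPM in mESC, 445 and 602 in ectoderm-like and 1715 and 1232 in XEN-like libraries. It had the largest log2 change of this group against mESC, 2.27 ± 0.27 (SE, edgeR adjusted p = 0.000190). In ectoderm-like cells against mESC, 0 of the 7 passed in edgeR or DESeq2 and 1 had an unadjusted p below 0.05, with log2 changes of 0.77 for Hspa5, 0.27 for Hsp90b1 and -0.12 for Calr (edgeR adjusted p = 0.165, 0.582 and 0.831). For all 7 genes of the group the first XEN-like library read higher than the second.

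Of the co-chaperones and induced lumen proteins, 5 of the 6 tested rose in XEN-like cells against mESC and 4 rose against ectoderm-like cells. Dnajc3, which assists BiP and dampens PERK, read 12.2 and 8.27 CPM in mESC, 38.3 and 38.8 in ectoderm-like and 203 and 92.1 in XEN-like libraries. The groups rose in that order without overlap, and the change against mESC was the largest of any member, at 3.62 ± 0.40 on the log2 scale (SE, edgeR adjusted p = 0.000139). It also rose in ectoderm-like cells (1.60 ± 0.40 SE, edgeR adjusted p = 0.0152), a call that missed the threshold without either ectoderm-like library (edgeR adjusted p = 0.0616 and 0.0912) or the second mESC library (edgeR adjusted p = 0.0803). Between the fates Dnajc3 differed by 2.02 ± 0.36 (SE, edgeR adjusted p = 0.00477, and 0.072 and 0.0507 without the first ectoderm-like or first XEN-like library). Manf, a secreted factor made under ER stress, read 90.6 and 39.6 CPM in mESC, 71.1 and 82.7 in ectoderm-like and 459 and 283 in XEN-like libraries. Its mESC and ectoderm-like values overlapped, and the XEN-like log2 change was 2.30 ± 0.37 against mESC (SE, edgeR adjusted p = 0.00105) and 2.36 ± 0.37 against ectoderm-like cells (SE, edgeR adjusted p = 0.00269, and 0.0511 without the first ectoderm-like library). Sdf2l1, at 6.12 and 2.61 CPM in mESC and 17.3 and 5.47 CPM in XEN-like libraries, overlapped between groups and did not pass (1.22, edgeR adjusted p = 0.164).

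The 3 KDEL receptors, which return escaped ER residents from the Golgi, rose in XEN-like cells against both other groups. Kdelr3 read 19.2 and 27.9 CPM in mESC, 17.8 and 44.6 in ectoderm-like and 218 and 342 in XEN-like libraries. Its log2 change was 3.38 ± 0.47 against mESC (SE, edgeR adjusted p = 0.000440) and 3.29 ± 0.47 against ectoderm-like cells (SE, edgeR adjusted p = 0.00180). Kdelr2 read 104 and 89.2 CPM in mESC, 122 and 170 in ectoderm-like and 443 and 446 in XEN-like libraries. It rose by 2.00 ± 0.28 against mESC (SE, edgeR adjusted p = 0.000443) and 1.71 ± 0.27 against ectoderm-like cells (SE, edgeR adjusted p = 0.00301). Kdelr1 had the smallest change of the 3, 1.38 ± 0.32 (SE, edgeR adjusted p = 0.0091), from 19.2 and 22.2 CPM in mESC to 65.5 and 59.2 CPM in XEN-like libraries. Its call against mESC missed the threshold without the first mESC library (1.23, edgeR adjusted p = 0.0523), and its call against ectoderm-like cells (1.18, edgeR adjusted p = 0.032) without any 1 of the 4 sorted libraries. In ectoderm-like cells against mESC, 0 of the 3 passed in edgeR, in DESeq2 or at an unadjusted p below 0.05.

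The stress genes went in different directions. Xbp1, the transcription factor activated by IRE1, read 33.2 and 20.5 CPM in mESC, 24.5 and 45.9 in ectoderm-like and 139 and 129 in XEN-like libraries, and rose by 2.11 ± 0.37 against mESC (SE, edgeR adjusted p = 0.00193) and 2.03 ± 0.37 against ectoderm-like cells (SE, edgeR adjusted p = 0.00564, and 0.0761 without the first ectoderm-like library). The UMIs count Xbp1 RNA and do not separate its spliced form. Edem1, which sends misfolded glycoproteins to degradation, read 13.1 and 6.53 CPM in mESC, 20.0 and 27.8 in ectoderm-like and 84.8 and 52.9 in XEN-like libraries, and rose by 2.60 ± 0.40 against mESC (SE, edgeR adjusted p = 0.000887). Herpud1, another degradation factor, read 3.06 and 17.4 CPM in mESC and 51.8 and 28.3 CPM in XEN-like libraries without overlap, but its mESC libraries differed widely and it missed the threshold (1.74 ± 0.61 SE, edgeR adjusted p = 0.0607).

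Atf4, the transcription factor translated after PERK activation, was the member that fell. It read 81.8 and 172 CPM in mESC, 24.5 and 21.3 in ectoderm-like and 63.0 and 35.5 in XEN-like libraries. Both mESC values lay above the other 4. Atf4 RNA fell by 2.79 ± 0.42 in ectoderm-like cells on the log2 scale (SE, edgeR adjusted p = 0.000877), a call kept when any 1 library was left out. In XEN-like cells it fell by 1.58 ± 0.39 (SE, edgeR adjusted p = 0.0130), and the call was lost without the second mESC library (-0.92, edgeR adjusted p = 0.117) or the second XEN-like library (-1.34, edgeR adjusted p = 0.0930). Ddit3, the stress-induced factor CHOP, read 2.62 and 11.8 CPM in mESC, 2.22 and 0.646 in ectoderm-like and 7.11 and 1.82 in XEN-like libraries, with overlapping mESC and XEN-like values. Its log2 change was -0.79 in XEN-like cells (edgeR adjusted p = 0.495) and -2.55 in ectoderm-like cells (edgeR adjusted p = 0.0761).

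The 7 members with an ERSE all rose in XEN-like cells against mESC, with log2 changes of 1.02 to 3.62 and a median of 2.02. Of the 21 tested members whose promoter held none of ERSE, ERSE-II and the response element core, 14 rose and 1 fell, with a median of 1.38. In ectoderm-like cells against mESC 1 of the 7 and 2 of the 21 rose, with medians of 0.27 and 0.09. Between the fates 6 of the 7 and 10 of the 21 were higher in XEN-like cells, with medians of 1.75 and 1.04. The sets were described and not tested against each other.

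Calls against mESC were steadier than calls between the fates. Leaving out 1 library at a time kept 21 of the 31 member calls between XEN-like cells and mESC in every fit, but only 4 of the 24 between the fates (Kdelr2, Kdelr3, Sec11c and Ssr4). Without the first ectoderm-like library, 4 members were called between the fates and without the second 15, and without the first XEN-like library 12, though without that first ectoderm-like library all genes together gave only 131 higher and 131 lower calls. For ectoderm-like cells against mESC the 4 calls became 1 without the second ectoderm-like library and 2 without the second mESC library. Pluripotency markers moved with the contrast between the fates: 7 of the 12 were higher in both XEN-like libraries than in both ectoderm-like libraries, 1 was lower, and their sums are given above. Ectoderm markers were lower in XEN-like libraries for 11 of 11 genes, at 322.7 to 611 against 2803 to 3270 CPM, with Pax6 at 0. Their part in the result was not tested.

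The cargo of this machinery in XEN-like cells changed far more than the machinery. Of 8 basement membrane genes 7 could be tested, and 6 rose in XEN-like cells against mESC: Lamb1 by 6.83, Col4a1 by 6.66, Col4a2 by 5.98, Lama1 by 5.29, Sparc by 4.46 and Lamc1 by 4.05 on the log2 scale, while Nid1 changed by 0.76 (edgeR adjusted p = 0.121). Hspg2 was too low to test. All 7 were higher in XEN-like than in ectoderm-like cells, with log2 differences of 3.93 for Lama1, 3.80 for Lamc1, 3.45 for Nid1, 3.43 for Lamb1, 2.99 for Sparc, 2.75 for Col4a1 and 2.60 for Col4a2. In ectoderm-like cells against mESC, Col4a1 (3.92), Lamb1 (3.40) and Col4a2 (3.38) rose, Nid1 fell (-2.69), and Sparc (1.47), Lama1 (1.36) and Lamc1 (0.25) did not pass (edgeR adjusted p = 0.0751, 0.10 and 0.727). The XEN-like libraries differed in Col4a1, at 1208 and 236 CPM. The ectoderm-like libraries differed too, at 61.7 and 158 CPM for Col4a1, 56.1 and 161 for Lamb1 and 22.2 and 52.3 for Col4a2. The higher values were in the second library, which also held more of the XEN markers.

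The wider pathway was described in the same way. Of 96 further genes of the pathway 88 were tested. In XEN-like cells against mESC 45 rose and 3 fell, beside 12.3% and 10.5% of all genes. In ectoderm-like cells against mESC 4 rose and 3 fell, beside 9.82% and 9.27%, so calls there were no more frequent than over all genes. Between the fates 34 were higher and 1 lower in XEN-like cells, beside 6.98% and 5.71%. Oligosaccharyltransferase subunits, which add N-glycans, rose in 10 of 11 cases against mESC, and cargo receptors in 9 of 10. In XEN-like cells the largest rises were in Tmed3 (3.72), a cargo receptor, Erp29 (3.09), a lumen folding factor, and Creb3l2 (3.05), an ER-bound transcription factor. The largest falls were in Nupr1 (-5.40), Ddit4 (-3.20) and Asns (-2.46), all known targets of ATF4. Ddit4 averaged only 5.45 CPM in mESC and Creb3l2 2.18 CPM, so both folds rest on low counts. Of the 10 ATF4 and CHOP targets listed 7 were tested, and 1 rose and 3 fell. In ectoderm-like cells Tmed3 (2.47), Wrb (1.49) and Tmed2 (1.22) rose most, Wrb serving the insertion of tail-anchored proteins, and Nupr1 (-6.98), Asns (-3.57) and Asna1 (-1.36) fell most. Between the fates, Erp29 (2.57), P4hb (1.97) and Creb3l2 (1.94) were higher and Ddit4 (-3.25) lower in XEN-like cells. Asns, which makes asparagine, read 1269 and 1037 CPM in mESC, 115 and 125 in ectoderm-like and 301 and 185 in XEN-like libraries, whereas Nupr1 read 23.2 and 231 CPM in the mESC pair, so its fold rests on libraries that disagreed.

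In whole cultures the summed level of the members stayed near that of mESC through 24 h and then increased at every time point. It read 6842 CPM at 6 h, 6259 at 12 h, 7070 at 24 h, 7651 at 36 h, 8795 at 48 h, 9744 at 60 h, 11117 at 72 h, 12627 at 84 h and 15366 at 96 h. Each time point is 1 library, so there is no replicate check and no test, and the intervals given here and below are 95% intervals for counting error alone. The 96 h level was 2.53 times that of the pooled mESC (2.49 to 2.57), beside a median ratio of 1.18 over all genes, and 1.88 times when scaled by TMM factors over all bulk libraries. Of 37 members with 50 or more UMIs, 27 were at least 2-fold higher at 96 h, against 21.0% of all genes, and 0 were at least 2-fold lower, against 9.22%. With TMM factors the counts were 21 and 1 (Atf4).

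By function, KDEL receptors (4.34), chaperones (4.25) and co-chaperones (3.68) had the highest ratios of summed CPM at 96 h over mESC, followed by TRAP (2.28), signal peptidase (2.24), the translocon (1.54), stress genes (1.5) and SRP (1.41). These sums follow the most abundant gene of a group, and the median ratio of members with 50 or more UMIs was 4.57 for chaperones, 3.53 for stress genes, 3.17 for KDEL receptors, 3.15 for the translocon, 2.80 for TRAP, 2.70 for co-chaperones, 2.12 for signal peptidase and 1.44 for SRP. The largest member ratios were 11.2 for Dnajc3 (8.14 to 15.7), 11 for Kdelr3 (8.91 to 13.6) and 6.00 for Edem1 (4.22 to 8.67). Hspa5 went from 187 CPM in pooled mESC to 942 CPM at 96 h (ratio 5.04), Hsp90b1 from 438 to 2001 (4.57) and Calr from 268 to 1190 (4.43). The lowest ratios were 0.562 for Atf4 (0.464 to 0.677), 1.24 for Sec61b (1.16 to 1.34) and 1.33 for both Sec61g (1.28 to 1.38) and Srp14 (1.21 to 1.47). With TMM factors Srp14, Sec61b and Sec61g fell just under 1, at 0.997, 0.926 and 0.992.

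**Figure D2:**
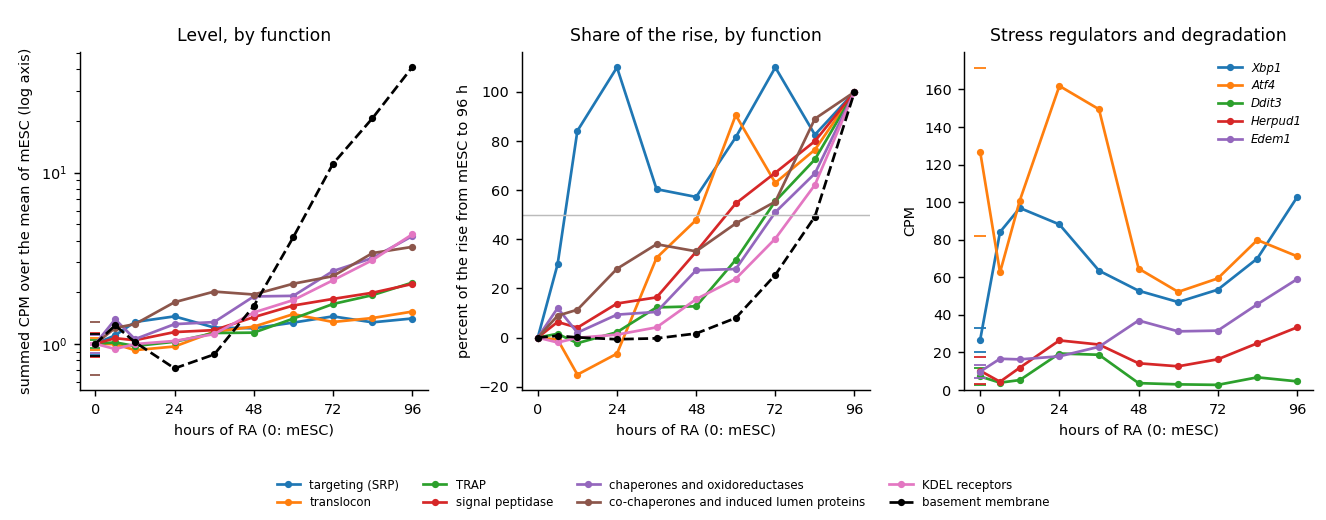
Levels against hours of RA exposure in whole cultures, 1 library per time point after the 2 mESC libraries: left, summed CPM over the mean of mESC by function on a log axis, with basement membrane genes dashed and stress genes left to the right panel; middle, percent of the rise from mESC to 96 h; right, CPM of Xbp1, Atf4, Ddit3, Herpud1 and Edem1, with dashes at 0 h for each mESC library. At 72 h the median member had made 58.6% of its rise and the median basement membrane gene 25.3%.

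The members rose before the genes of the basement membrane on the linear scale. The midpoint time, the first time point at which a gene had covered the middle of its rise from mESC to 96 h and stayed there, had a median of 72 h over the 31 members that rose at least 1.5-fold, with a range of 36 to 84 h. It was 96 h over 7 basement membrane genes, with a range of 84 to 96 h. Of the members 23 reached it by 72 h, and of the basement membrane genes 0. At 48 h the median member had covered 34.4% of its rise and the median basement membrane gene 2.74%. Basement membrane genes rose far more, from 270 to 11105 summed CPM (41.1-fold), and the order is far less clear on a log2 scale, where the medians were 60 h and 72 h and 28 of the 31 members and 6 of the 7 basement membrane genes reached the midpoint by 72 h.

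Within the members, signal peptidase was earliest, with a median of 36 h (Spcs2, Spcs3 and Sec11c at 36 h, Sec11a at 72 h, Spcs1 at 84 h). TRAP followed with a median of 54 h (Ssr1 and Ssr3 at 48 h, Ssr4 at 60 h, Ssr2 at 84 h). The translocon, chaperones, co-chaperones and KDEL receptors had medians of 72 h, and Calr, Pdia6 and Kdelr3 came at 84 h. Xbp1, Herpud1 and Edem1 all came at 84 h. With 1 library per time point, neighbouring times could not be ordered beyond counting error.

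The stress regulators had an additional early pattern. Xbp1 read 33.2 and 20.5 CPM in mESC, 84.1 at 6 h, 96.9 at 12 h, 88.2 at 24 h, 46.8 at 60 h and 103 at 96 h, and so was high both early and late. Atf4 read 62.6 CPM at 6 h, 101 at 12 h, 162 at 24 h, 149 at 36 h, 52.2 at 60 h and 71.2 at 96 h, against 81.8 and 172 in the mESC libraries. Its 24 h and 36 h values thus lay within the range of the mESC pair. Ddit3 read 19.4 and 18.8 CPM at 24 h and 36 h, above both mESC values of 2.62 and 11.8, and stood at 9 UMIs at 96 h. Herpud1 read 26.4 and 24.2 CPM at 24 h and 36 h, above its mESC values of 3.06 and 17.4.

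At 72 h the PDGFRA+/CD24- cells already held most of the sorted XEN-like level of the machinery. Their summed members read 16920 CPM, against 7665, 7371 and 7220 CPM in the terciles of PDGFRA- cells from lowest to highest CD24, a ratio of 2.28 over the pooled terciles (2.24 to 2.32). Of 33 members with 50 or more UMIs, 21 were at least 2-fold higher, against 10.8% of all genes, and 0 at least 2-fold lower, against 13.0%. The median ratio was 2.29, beside 0.961 over all genes. By function the ratios were 4.40 for co-chaperones, 3.90 for KDEL receptors, 2.87 for stress genes, 2.66 for chaperones, 2.31 for TRAP, 1.97 for the translocon, 1.88 for signal peptidase and 1.44 for SRP.

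Kdelr3 read 218 CPM in the PDGFRA+ library against 31.1, 24.7 and 17.7 CPM in the terciles, a ratio of 8.93 (7.04 to 11.4). Manf read 465 CPM against 87.8, 75.0 and 62.9 (ratio 6.19, 5.37 to 7.15), and Sec11c 145 CPM against 38.8, 15.0 and 16.1 (6.13, 4.74 to 7.97). Each of the 3 was above all terciles, and within the terciles Sec11c was highest where CD24 was lowest. The ratios were 2.83 for Hspa5, 3.40 for Hsp90b1, 3.89 for Calr and 3.96 for Xbp1. The lowest were 1.22 for Srp72 (0.991 to 1.5), 1.38 for Srp14 and 1.45 for Atf4 (1.03 to 2.02), and Ddit3 had only 4 UMIs against 12.

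As a percentage of the mean of the sorted XEN-like libraries at 96 h, the median member of the 72 h PDGFRA+ library stood at 95.6% (37 genes, from 49.6% for Pdia3 to 136% for Sec11c), and 36 of the 37 were at or above 50%, with Pdia3 just under. By function the medians were 111% for the translocon and signal peptidase, 100% for TRAP, 96.6% for KDEL receptors, 95.1% for co-chaperones, 92.8% for stress genes, 91.0% for SRP and 80.5% for chaperones. The median of 7 basement membrane genes was 48.9%, with Col4a1 at 13.6%, Col4a2 at 22.7%, Sparc at 30.0%, Lama1 at 48.9%, Nid1 at 51.7%, Lamc1 at 52.3% and Lamb1 at 68.2%. The sorted XEN-like libraries decide this last value: without the first it was 70.4% and without the second 33.5%, beside 114% and 91.5% for the members. The 5 XEN markers stood at a median of 85.5%. The share of all genes at or above 50% was not counted, and these percentages subtract no baseline. The pooled PDGFRA- terciles held 7420 CPM of the members, against 18856 CPM in the pooled sorted XEN-like libraries. For the basement membrane genes the values were 433 and 8553 CPM, so the members started from a higher base. The whole 72 h culture read higher than all 4 of its sorted gates for 3 of 6 basement membrane genes, with Col4a1 at 424 CPM against at most 98.5, and for 4 of 34 members (Srp68, Srp72, Pdia3 and Atf4). The share of all genes that did so was not counted, so these counts describe only the named genes.

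**Figure D3:**
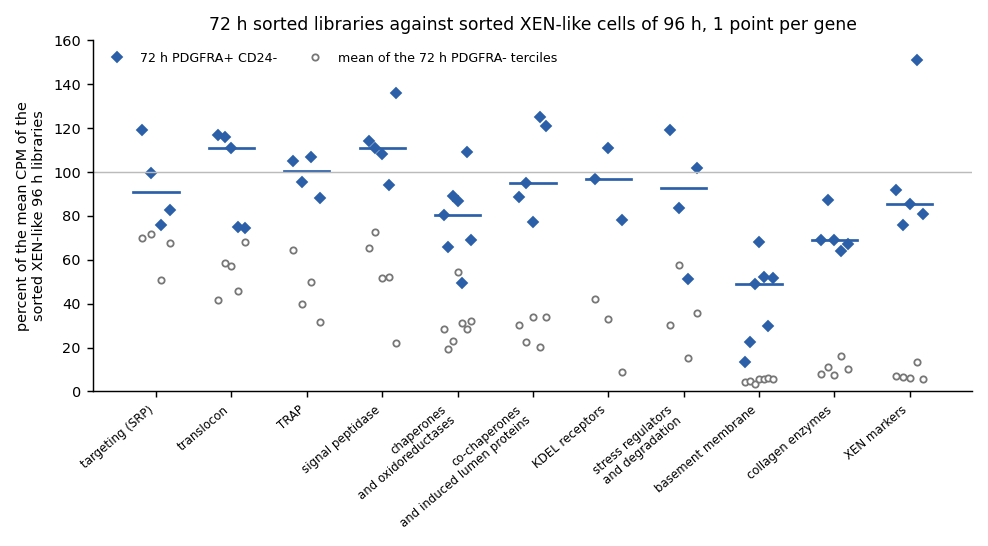
Level of each gene with 50 or more UMIs in the 72 h PDGFRA+/CD24- library (diamonds, with a bar at the median) and in the mean of the PDGFRA- terciles (open circles), as a percentage of the mean of the sorted XEN-like libraries at 96 h, by function, with basement membrane genes, collagen enzymes and XEN markers beside them. The diamonds of the members have a median of 95.6% and those of the basement membrane genes 48.9%.

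CD24 alone split the members little. Between the highest and lowest CD24 quartiles at 48 h, 0 of 30 members were at least 2-fold higher, against 2.10% of all genes, and 0 at least 2-fold lower, against 3.00%. The summed level was 7696 against 6742 CPM, a ratio of 1.14 (1.11 to 1.17), beside 1.02 for the median gene. The ratios ran from 0.691 for Pdia4 (0.537 to 0.888), 0.712 for Atf4 and 0.741 for Sec11c to 1.33 for Sec61g, 1.42 for Pdia6 (1.27 to 1.59) and 1.51 for Srp72 (1.13 to 2.02). Hspa5 stood at 0.820, Hsp90b1 at 1.07, Calr at 1.01 and Xbp1 at 1.10.

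Between the highest and lowest CD24 terciles at 72 h, 0 of 28 members were at least 2-fold higher, against 2.19% of all genes, and 1, Sec11c (0.415, 0.237 to 0.704), was at least 2-fold lower, against 7.95%. The next lowest were Xbp1 at 0.554 (0.360 to 0.841) and Calr at 0.641 (0.548 to 0.749), and the highest were Sec11a at 1.40 (1.17 to 1.68), Spcs1 at 1.28 (1.09 to 1.51) and Spcs2 at 1.21 (1.01 to 1.44). The summed members gave 0.942 (0.916 to 0.969) and the summed basement membrane genes 0.493. Hspa5 stood at 1.01, Hsp90b1 at 0.731 and Atf4 at 0.652.

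In single cells measured by SCRB-seq, a UMI method with 1 plate per time point, the members rose over time in wells with more than 2000 UMIs, with a lower value at 72 h than on the plates before and after. They made up 48.7 UMIs per 10000 at 0 h, 56.5 at 36 h, 75.7 at 48 h, 79.6 at 60 h, 68.4 at 72 h and 108 at 96 h. At 96 h the 137 wells were divided by clustering, on variable genes without the members, into 63 wells with high Gata6 and 74 with high Sox11, with median depths of 4133 and 3962 UMIs. The clusters are named by gene and not as cell types, because the leading genes of the Gata6 cluster included the pluripotency genes Dppa5a and Klf4 beside Gata6 and Lamc1. By a counting interval of the ratio that excluded 1, 4 of 5 XEN genes were higher and 10 of 11 ectoderm genes lower than in the Sox11 cluster. Summed pluripotency genes stood at 1.52 times the Sox11 level. The Sox11 cluster also held XEN genes: the XEN markers made up 7.05 UMIs per 10000, against 15.4 in the Gata6 cluster. Basement membrane genes made up 74.4 against 187, a ratio of 2.52 for the Gata6 cluster (2.41 to 2.63). No doublet caller was run. Wells at 60 h and 72 h were placed with whichever of these clusters or the 0 h wells they correlated with best.

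The Gata6 cluster held 128 UMIs of the members per 10000 (124 to 132) and the Sox11 cluster 91.8 (88.8 to 94.8), and the median wells held 130 and 77.9. The ratio was 1.39 (1.33 to 1.46, counting error), in 1 plate and therefore without a test. It was 1.78 in wells above 4000 UMIs and 1.74 when clustering used log2 values, which put 76.6% of the wells in the same cluster. Of the 33 members with 50 or more UMIs in both clusters together, 16 had an interval of the ratio above 1, against 13.0% of the 2628 such genes that the clustering did not use, and 0 had one below 1, against 18.4%. The 96 other secretory genes summed to a ratio of 1.37 (1.31 to 1.43), close to that of the members. KDEL receptors had the highest ratio of the functions, 2.50 (1.93 to 3.27), then chaperones at 1.51 (1.41 to 1.60), in which each of the 7 genes had an interval above 1. Calr gave 2.01 (1.73 to 2.33), Hsp90b1 1.41 (1.25 to 1.59) and Hspa5 1.18 (1.03 to 1.35). Stress genes gave 0.806 (0.623 to 1.04), with Xbp1 at 1.20 (0.716 to 2.00), Atf4 at 0.798 (0.494 to 1.27) and Ddit3 at 3 against 10 UMIs. With log2 clustering the summed stress genes stood at 1.23 (0.952 to 1.61), so their direction depended on the clustering.

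**Figure D4:**
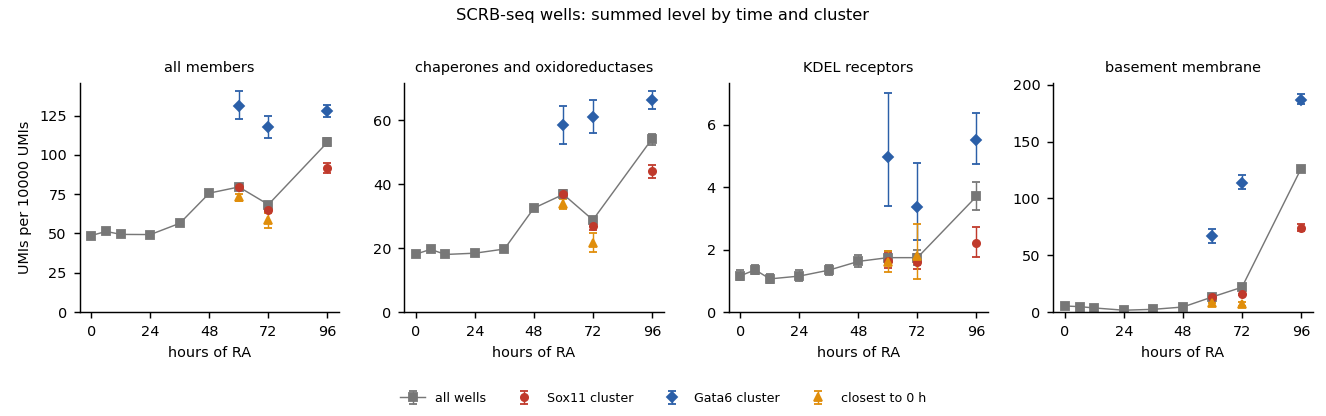
UMIs per 10000 against hours of RA exposure in SCRB-seq wells, with 95% Poisson bars, for all members, chaperones and oxidoreductases, KDEL receptors and basement membrane genes: grey squares are all wells, red circles the Sox11 cluster, blue diamonds the Gata6 cluster and orange triangles the wells closest to 0 h. The members of the Gata6 cluster stand at 128 at 96 h, and its 60 h and 72 h points reach 103% and 92.0% of that level.

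The timing in single cells could be read in the few wells of earlier plates that fell in the Gata6 cluster, 10 at 60 h and 24 at 72 h. Their summed members reached 103% (95.4 to 111) and 92.0% (86.0 to 98.4) of the 96 h level of that cluster, while basement membrane genes reached 35.6% (32.2 to 39.3) and 61.1% (57.1 to 65.2). With log2 clustering only 4 wells remained at 60 h, and they gave 128% (117 to 140) and 61.3% (54.9 to 68.2), and 14 wells at 72 h gave 100% and 73.9%. By function, at 72 h co-chaperones stood at 151% (117 to 193), chaperones at 92.0%, signal peptidase at 78.3% and KDEL receptors at 61.2% (40.4 to 89.9), the last close to the 61.1% of the basement membrane genes. In the same 72 h wells ectoderm markers stood at 180% and pluripotency markers at 132% of the 96 h level, and their part in the result was not tested. Sox11 wells had the same order, with summed members at 87.0% and 71.0% of the Sox11 cluster's 96 h level at 60 h and 72 h. Their basement membrane genes stood at 17.2% and 20.8%, so the order was not particular to the Gata6 wells. The ratio of the members in Gata6 wells over Sox11 wells was 1.65 (1.53 to 1.77) at 60 h and 1.80 (1.69 to 1.92) at 72 h. At 72 h Hsp90b1 gave 2.50 and Hspa5 1.88. Basement membrane genes helped to define the clusters and the members did not, so the basement membrane values are a description of the wells chosen.

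In SMART-seq2 cells, whose RPKM values allow genes to be compared per length, the summed members went from 5411 ± 866 RPKM at 0 h (SD over cells) to 6925 at 12 h, 6363 at 24 h and 7879 at 48 h. Cells of 1 time point share their culture, so the SD is a spread over cells and not an error of the condition. At 48 h the highest per-length means among the members were those of Hspa5 (746), Sec61b (670) and Canx (663). Hspa5 read 388 RPKM at 0 h, 676 at 12 h and 593 at 24 h. Xbp1 was again early, at 50.8, 133, 135 and 83.0 RPKM at 0, 12, 24 and 48 h, and Herpud1 followed at 13.0, 22.3, 38.9 and 30.4. Atf4 read 174, 210, 262 and 145 RPKM, and Ddit3 12.7, 17.3, 23.4 and 15.6.

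At 48 h, 11 cells with Pdgfra above 1 RPKM held 8999 ± 4308 RPKM of the members (SD over cells), and 30 cells with Cd24a above its median and no Pdgfra held 7511 ± 2413. The ratio was 1.20 and the spreads overlapped widely. It rests on cells scaled to a common total. Without that scaling it was 1.35 in the same cells, and 1.45 when the thresholds were also applied to unscaled values, which chose 10 and 29 cells. Of the 40 members 30 had a ratio above 1, with a median of 1.21 beside 0.938 over 10343 genes. The share of all genes above 1 was not counted. The highest were the stress genes Ddit3 (3.93), Herpud1 (3.05), Atf4 (2.80) and Xbp1 (2.03) and the receptor Kdelr3 (2.11), and the lowest Sec63 (0.670), Spcs1 (0.681) and Spcs3 (0.682). Summed stress genes read 615 ± 558 RPKM in the 11 Pdgfra cells (SD over cells), above their upper quartile of 600, so few cells drew the mean up. Their median was 403 RPKM, against 196 RPKM in the Cd24a cells.

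In CPM, the summed level of the members was nearly equal in the cultures of both fates. The members summed to 11192 CPM in the library of cultured XEN-like cells and 11527 CPM in that of cultured ectoderm-like cells. The ratio was 0.971 (0.951 to 0.991), beside a median of 0.804 over all genes. No other scaling was tried for this ratio. Each culture is 1 library without a replicate. The XEN-like culture stood at 0.594 times the pooled sorted XEN-like libraries (0.583 to 0.604) and below both of them, and the ectoderm-like culture at 1.45 times the pooled sorted ectoderm-like libraries (1.43 to 1.48) and above both. Stress genes alone were above 1 in each fate, at 1.40 (1.26 to 1.55) in the XEN-like and 3.72 (3.24 to 4.27) in the ectoderm-like culture. Stomach epithelium markers made up 120978 CPM of the XEN-like culture, against 34.7 to 140 CPM in all other libraries, and mesenchymal matrix markers 3873 CPM of the ectoderm-like culture, against 3.92 to 21.1 CPM. Lineage markers moved as well: from sorted XEN-like cells to the XEN-like culture, XEN markers went from 1381 and 1806 to 671.2 CPM, pluripotency markers from 4524 and 6267 to 718.1 CPM and ectoderm markers from 322.7 and 611 to 1552 CPM, beside 1653 CPM in the ectoderm-like culture. The part of these genes in the results was not tested.

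Of 37 members, 0 were at least 2-fold higher in the XEN-like culture than in sorted XEN-like cells, against 19.8% of all genes, and 8 were at least 2-fold lower, against 21.7%. The share at least 2-fold lower was thus close to that of all genes. The lowest were Pdia6 at 0.343 (0.317 to 0.370), Pdia4 at 0.388 (0.333 to 0.451) and Creld2 at 0.417 (0.332 to 0.519), a lumen protein induced by stress. Hsp90b1 went from 2912 and 1281 CPM in the sorted libraries to 1046 CPM (ratio 0.449), Calr from 1370 and 748 to 712 (0.620) and Hspa5 from 1308 and 654 to 951 (0.886), which lies between its sorted values. The highest were Sec63 at 1.84 (1.34 to 2.51), Xbp1 at 1.71 (1.47 to 1.98) and Kdelr1 at 1.54 (1.23 to 1.92). Xbp1 read 230 CPM, above 139 and 129 in the sorted pair. Basement membrane genes stood at 1.11 (1.09 to 1.13) and Atf4 at 0.960. Ddit3 stood at 2.64 (1.30 to 5.46), from 20 against 16 UMIs.

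Of 35 members, 7 were at least 2-fold higher in the ectoderm-like culture than in sorted ectoderm-like cells, against 16.6% of all genes, and 0 at least 2-fold lower, against 12.6%. The share at least 2-fold higher was little above that of all genes. Ddit3 went from 2.22 and 0.646 CPM to 28.9 CPM, a ratio of 19.4 (7.80 to 62.0) from 54 against 5 UMIs. Atf4 went from 24.5 and 21.3 CPM to 199 CPM (8.63, 6.74 to 11.2) and Kdelr3 from 17.8 and 44.6 CPM to 130 CPM (4.31, 3.40 to 5.49). All 3 lay above both sorted libraries, and Herpud1 (3.78), Spcs1 (2.73), Ssr4 (2.22) and Calr (2.06) were the other 4. The lowest ratios were 0.825 for Spcs2 (0.719 to 0.944), 0.855 for Canx (0.773 to 0.945) and 1.03 for Pdia6. Hspa5 stood at 1.49, Hsp90b1 at 1.29 and Xbp1 at 1.87.

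Between the cultures, 4 of 37 members were at least 2-fold higher in the XEN-like culture, against 19.5% of all genes, and 4 at least 2-fold lower, against 24.9%. Edem1 read 73.1 against 13.9 CPM (5.25, 3.40 to 8.41), Sec11c 85.5 against 22.5 CPM (3.80, 2.66 to 5.54) and Xbp1 230 against 64.2 CPM (3.59, 2.90 to 4.46), with Dnajc3 at 2.88. These 4 were also higher in sorted XEN-like than in sorted ectoderm-like cells. Lower were Atf4 at 51.0 against 199 CPM (0.257, 0.197 to 0.331), Spcs1 at 0.463, Ddit3 at 13.8 against 28.9 CPM (0.477, 0.271 to 0.810) and Srp14 at 0.489. Hspa5 stood at 1.62, Hsp90b1 at 1.23 and Calr at 1.14, and basement membrane genes at 4.16.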

How the data were processed

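Bulk RNA-seq, SCRB-seq and SMART-seq2 libraries of 38 samples were analysed. The authors aligned reads with BWA 0.7.4 to mouse RefSeq transcripts (mm10), mitochondrial sequence and spike-ins, and deposited UMI counts per gene for bulk libraries and SCRB-seq wells. The SMART-seq2 values were deposited as RPKM from TopHat and Cuffnorm. From the bulk counts, 2 genes with 3 text values in all and 4 rows with a repeated name were left out, and the 0.127% to 0.140% of SMART-seq2 values written as text (all below 1 RPKM) were read as 0.

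The 25 bulk libraries held a median of 1665335 UMIs. The sorted comparisons used edgeR 4.0.16 in R 4.3.3 (TMM, filterByExpr, quasi-likelihood test over the 6 replicated libraries, Benjamini-Hochberg adjustment, threshold 0.05) on the counts, with DESeq2 1.42.0 as the alternative. The replicates are called biological in the methods of the study and are only numbered in the labels. Samples with 1 library per condition were compared by CPM ratios with exact 95% intervals for counting error only, and ratios of 2-fold or more were counted where the larger library had 50 UMIs or more of the gene. Promoters were searched by script. SCRB-seq used 2448 of 3456 wells (above 2000 UMIs, 137 to 335 per time point, median 4204.5), with 829 variable genes and k-means clustering (50 starts, 1 minus Pearson correlation). Plates share well names by chance of the layout (91 to 298 between pairs of plates), and 0 pairs of wells held identical counts. SMART-seq2 used 339 cells (82 to 89 per time point), each scaled to the median total of 0 h cells. Other settings tried are other size factors, filters, tools, scalings, clusterings and leaving out single libraries. Scripts were tested on simulated data. Ratios and intervals were computed in Python 3.11.15 (pandas 2.3.3, numpy 2.4.6, scipy 1.17.1) and plots were drawn with matplotlib 3.10.9.

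Members and gene lists were chosen with earlier results of these data known. All 40 members are accounted for by function. Values are given for the 5 called members with the largest change in each direction, for Hspa5, Hsp90b1, Calr, Ddit3, Xbp1 and Atf4, for the 3 largest and smallest ratios between single libraries, for the 3 other secretory genes with the largest change each way, and for all basement membrane genes. Further members were named as examples of their function after their values were seen.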

Additional observations from a re-analysis of the deposited data

Results flagged for a closer look

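The summed members and most of their functions moved in opposite directions in the cultures of the 2 fates. In the XEN-like fate the culture lay below each of its sorted libraries, and in the ectoderm-like fate it lay above each of them. For all members the culture stood at 0.594 times the sorted level in the XEN-like fate and 1.45 times in the ectoderm-like fate. The medians over all genes were 0.839 and 0.986. For SRP the ratios were 0.631 and 1.36, for the translocon 0.543 and 1.38, for TRAP 0.675 and 1.65 and for signal peptidase 0.653 and 1.58. For chaperones and oxidoreductases they were 0.552 and 1.30, for co-chaperones and induced lumen proteins 0.643 and 1.46 and for KDEL receptors 0.570 and 2.11. Stress regulators and degradation genes went the same way in each, with 1.40 and 3.72. The difference between the fates was not tested, since each culture is 1 library.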

How the results depend on the processing

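Of 910 values of single genes in the sorted comparisons under other settings, 808 (88.8%) kept their direction and their side of the threshold, 89 lost the threshold, 13 gained it and 0 changed direction. Members called in ectoderm-like cells against mESC numbered 4, and 1 to 5 without 1 library. Between the fates 24 were called, and 4 to 27 without 1 library. With the replicate number as a block the count was 34, beside 26 in the same 4 libraries without it, and all genes gave 1324 higher and 1286 lower calls. The same-numbered libraries correlated at 0.308 in their deviations from the group means over 8945 genes, with only 2 pairs, so the numbers were not taken as a pairing.

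The 96 h over mESC ratio of 2.53 became 2.32 and 2.78 with only the first or second mESC library and 1.88 with TMM factors. With TMM factors the 72 h PDGFRA+ ratio was 2.52 and the XEN-like culture 0.563. Leaving the 20 most abundant genes out of the total gave 0.687 for the XEN-like and 1.49 for the ectoderm-like culture. Without 1 sorted library these ratios were 0.545 to 0.707 and 1.36 to 1.54. On log2 values the median midpoint times were 60 h for members and 72 h for basement membrane genes.

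The 72 h percentage of the sorted XEN-like level ranged from 91.5 to 114 for members and from 33.5 to 70.4 for basement membrane genes without 1 library, and was 54.5 for the latter with TMM factors. The SCRB-seq ratio of 1.39 was 1.78 in wells above 4000 UMIs and 1.74 with log2 clustering, under which the percentages were 128 and 61.3 at 60 h (4 wells) and 100 and 73.9 at 72 h for members and basement membrane genes. The SMART-seq2 ratio was 1.35 without rescaling in the same cells and 1.45 in cells chosen on unscaled values. The settings on single sorted libraries for the cultures and the 72 h percentages, TMM for the latter, log2 clustering for the SCRB-seq percentages and the unscaled values of the same SMART-seq2 cells were chosen after seeing the data. The cause of these differences was not tested. Depth limits Ddit3, Dnajb9 and Sdf2l1 most, with few UMIs per library.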
